A study of Homo sapiens with 4 samples.

Results

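Core and linker histone genes were described in RNA-seq of Reh-6-MPR cells, a resistant derivative of Reh, an established line from human B-cell acute lymphoblastic leukemia, that tolerates the thiopurine 6-mercaptopurine (6-MP). The members were the protein-coding genes whose symbols carry a cluster histone prefix (H1-, H2AC, H2BC, H3C, H4C) or the stem of a replacement variant (H2AX, H2AZ, H2AJ), with a value above 0 in at least 1 library. This gave 63 members of 29833 genes listed, 56 in the histone clusters and 7 replacement variants (among them H1-7, H1-10, H2AJ, H2AX, H2AZ1 and H2AZ2). The cells, labelled wild type, were kept for 48 h in PBS (vehicle), 4 mM histidine, 1.0 μg/mL 6-MP, or the combination of these doses, and 1 library was made per treatment. Without replicates, differences between treatments could not be tested. The variant genes H3-3A, H3-3B, H2BE1, CENPA and MACROH2A1 fell outside the symbols chosen, and their values are given at the end of the account of replacement variants.

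Replication-dependent histone genes lie in clusters and are transcribed mainly in S phase, when new DNA is packed into nucleosomes of H2A, H2B, H3 and H4 held by the linker histone H1. Their mRNAs usually end in a conserved stem-loop instead of a poly(A) tail, and the stem-loop binding protein SLBP binds it for processing, translation and decay. Replacement variants are encoded by single genes outside the clusters, are expressed through the cell cycle and carry poly(A) tails, as do some transcripts of certain cluster genes. The libraries were made with a kit that takes up RNA by its poly(A) tail. The values of the cluster genes thus describe the captured transcripts, not the whole histone mRNA pool, and less histone mRNA cannot be told apart from a smaller captured share of it. In bulk RNA, likewise, fewer cells expressing a gene and less RNA per cell cannot be told apart.

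The stem-loop is shown for members that the results below turn on. The histone stem-loop consensus, 16 bases of which 6 were free to vary, was searched on the transcribed strand of GENCODE 29 transcripts, and the match is given in capitals with its neighbouring bases in lower case.
H2BC9: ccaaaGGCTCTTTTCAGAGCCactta
H2BC21: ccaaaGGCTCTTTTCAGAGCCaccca
H2AC6: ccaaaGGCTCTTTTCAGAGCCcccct
H2BC4: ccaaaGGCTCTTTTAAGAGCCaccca
H4C8: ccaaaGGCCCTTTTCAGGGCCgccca
H2AX: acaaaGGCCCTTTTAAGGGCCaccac
The form in H2BC9, H2BC21 and H2AC6 is shared by 14 members, that of H2BC4 by 4 and that of H4C8 by 3. The letters were found in 26 of the 54 cluster members with a GENCODE transcript and in H2AX, 1 of 7 replacement variants, against 0.266% of 83129 protein-coding transcripts. Many cluster transcripts are annotated without their 3′ end, so a missing match says only that the letters are not in the annotated transcript. In the H2BC9 transcript 1640 bases follow the stem-loop, in H2BC21 1729 and in H2AC6 1114.

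The promoters of 4 H2B genes are shown because H2BC21 differed in level between treatments from H2BC9, H2BC12 and H2BC4. The sequences come from RefSeq on GRCh38.p14, are written 5′ to 3′ on the strand of the gene and end right before the RefSeq start site, with the octamer ATTTGCAT in capitals. H2BC9 spans chr6:26251464-26251613, H2BC12 chr6:27146859-27147008 (minus strand), H2BC4 chr6:26123927-26124076 (minus strand) and H2BC21 chr1:149886683-149886832 (minus strand).
H2BC9: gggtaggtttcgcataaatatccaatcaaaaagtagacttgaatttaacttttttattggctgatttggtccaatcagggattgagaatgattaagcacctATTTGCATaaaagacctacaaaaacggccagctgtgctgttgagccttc
H2BC12: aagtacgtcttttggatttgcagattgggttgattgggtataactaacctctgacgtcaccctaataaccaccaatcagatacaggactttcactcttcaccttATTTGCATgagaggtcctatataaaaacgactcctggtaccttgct
H2BC4: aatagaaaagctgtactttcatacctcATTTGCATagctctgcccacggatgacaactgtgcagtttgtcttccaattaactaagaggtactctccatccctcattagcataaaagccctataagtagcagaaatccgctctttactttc
H2BC21: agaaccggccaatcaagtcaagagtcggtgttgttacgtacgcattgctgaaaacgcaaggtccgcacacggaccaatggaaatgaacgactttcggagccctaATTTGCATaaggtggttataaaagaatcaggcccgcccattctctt
The octamer, a binding sequence of POU-domain factors, begins 49, 46, 123 and 46 bases before the start site of H2BC9, H2BC12, H2BC4 and H2BC21. Over windows from 250 bases before to 50 after the start, and on both strands, it was present in 13 of 16 H2B promoters and 8 of 11 H2A promoters. It was present in 0 of 6 promoters of replacement variants and in 1.77% of 35116 RefSeq promoters. In the other cluster promoters it was also rare, at 0 of 4 for H1, 1 of 10 for H3 and 0 of 10 for H4. CCAAT was present in 44 of 51 cluster promoters against 34.6% of all promoters, and TATAAA in 34 of 51 against 11.5%. These 2 motifs did not set the cluster genes apart, since CCAAT was in 5 of 6 replacement promoters and TATAAA in 3 of 6. Among the 10 cluster H4 promoters, CCAAT was in 3 and TATAAA in 4. Matches of different motifs were counted separately even where they shared bases, and an H2A gene and its divergent H2B neighbour can share a match. In all, 57 of the 63 members had a promoter sequence.

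The deposited values are FPKM, in which a gene's reads are scaled to gene length and library size. The reads behind them were recovered from the steps of the values and were whole for all members. The libraries held between 12899122 reads (histidine + 6-MP) and 15486376 (histidine). Fold changes are differences of log2(FPKM + 1), a scale that shrinks the change of low genes. They were counted over the 12750 genes whose FPKM averaged 1 or more. Read ratios carry exact 95% intervals that cover counting error only and compare libraries, not treatments. Of the members, 17 reached that mean, 11 in the clusters and 6 replacement variants. Of the 45 cluster members below it, none is called by fold, and they enter the sums and read ratios. At the lower edge, 5 members had 1 read in all libraries together (H2AC17, H3C4, H3C15, H4C6 and H4C13), and no listed gene is at 0 in every library.

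The captured reads of the cluster genes were fewest in the combined treatment. The 56 genes together had 692 reads in the vehicle library, 707 after histidine, 686 after 6-MP and 374 after histidine + 6-MP. As RPM (reads per 1000000 reads of the library) this was 48.3, 45.7, 44.7 and 28.99. The library of the combined treatment lay apart from the other 3, whose intervals overlap one another. The log2 ratio of the combined treatment was -0.74 to vehicle (95% interval -0.92 to -0.55), -0.62 to 6-MP (-0.81 to -0.44) and -0.65 to histidine (-0.84 to -0.47). Histidine alone stood at -0.08 to vehicle (-0.24 to 0.07) and 6-MP alone at -0.11 (-0.27 to 0.04). The 3 ratios of the combined treatment share its 1 library, so they are not independent of each other. At the level of single genes, 29 of 56 cluster members were lowest in the combined treatment, against 16.8% of all genes listed. There 15 cluster members were at 0, compared with 11 for vehicle, 6 for histidine and 8 for 6-MP. The lower depth of the combined library bears on counts of genes at 0. The share of all genes at 0 in each library is not given here, so these counts are no result about the cluster genes. Above 0 in every library were 19624 of the 29833 genes listed and 38 of the 63 members.

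**Figure D1:**
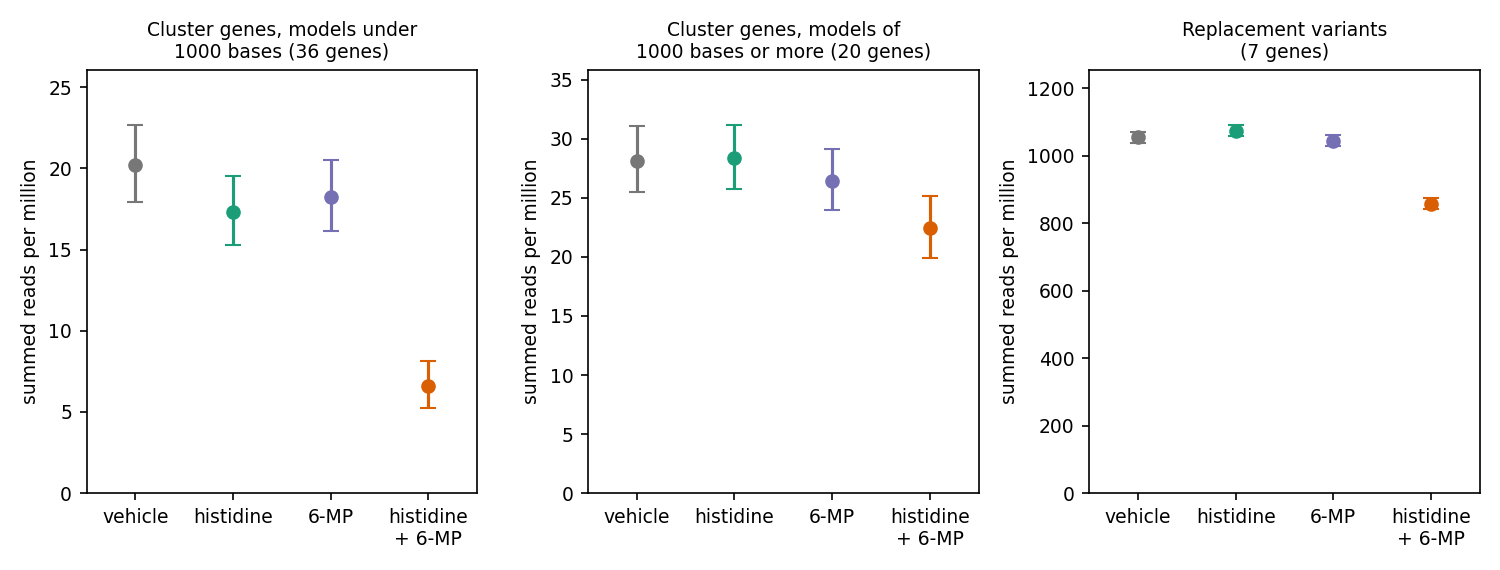
Summed RPM (vertical axes, each starting at 0) of cluster genes with short models, cluster genes with long models and replacement variants in the 4 libraries, with points for the value and bars for the exact 95% counting interval. The combined treatment is lowest in each panel, at 6.59 RPM against 17.3 to 20.2 for short models and 22.4 against 26.5 to 28.3 for long models, where the combined treatment is not the lowest once H2BC9 is left out.

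Among the 11 cluster genes above the FPKM limit, 6 had a log2 fold change of at most -1 in the combined treatment against vehicle and 0 of at least 1. Over all genes tested 6.53% passed this fold in either direction, 5.01% higher and 1.51% lower. The limit is a mean over the same libraries that are compared, so a high vehicle value helps a gene to reach it. H2AC13, for example, had a mean of 1.02 and 2.08 with vehicle. Without the limit, 7 of 56 cluster genes were lower by the fold and 0 higher, beside 4.17% of all genes in either direction. The median over these 11 genes was -1.10, beside 0.13 over all genes tested and -0.10 over the 6 replacement variants. Against 6-MP, 3 of 11 were lower and 0 higher (all genes 6.02%, 4.82% higher and 1.2% lower), with a median of -0.77. Against histidine, 3 of 11 were lower and 0 higher (all genes 5.55%, 4.15% higher and 1.4% lower), with a median of -0.72. For histidine against vehicle 0 of 11 passed (all genes 1.33%), and for 6-MP against vehicle 1 was lower, H2AC13 (all genes 1.18%, with 0.722% lower). By the read interval over all 56 cluster genes, 12 were lower in the combined treatment than with vehicle and 2 were higher, against 9.55% lower and 25.9% higher over all genes.

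H1-2 (HIST1H1C, chr6:26055740-26056470) encodes a linker histone that binds the nucleosome and the DNA between nucleosomes. Its FPKM stood at 3.44 in vehicle, 2.21 in histidine, 3.74 in 6-MP and 0.42 in histidine + 6-MP, from 36, 25, 42 and 4 reads. The combined treatment was lowest by a wide margin, with log2 fold changes of -1.64 to vehicle, -1.74 to 6-MP and -1.17 to histidine. The read ratio to vehicle was -3.02 on the log2 scale (-4.97 to -1.54). The other cluster linker histones were thinly covered, H1-3 at 1 to 7 reads per library, H1-4 at 1 to 5 and H1-5 at 1 to 6. Together the 4 genes had 46, 30, 56 and 8 reads in the order vehicle, histidine, 6-MP and histidine + 6-MP, which is used for all series of values below.

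H2A genes encode the core histone that dimerizes with H2B. H2AC20 (HIST2H2AC, chr1:149886918-149887411) had an FPKM of 3.53, 3.40, 3.03 and 0.47, from 25, 26, 23 and 3 reads. The first 3 libraries lay close together and the combined treatment was far below them, with a log2 read ratio to vehicle of -2.91 (-5.28 to -1.20). H2AC13 (HIST1H2AI) had an FPKM of 2.08, 1.16, 0.52 and 0.31, from 15, 9, 4 and 2 reads. It was already low with 6-MP alone, where the log2 fold change to vehicle was -1.02, and its combined treatment did not differ from 6-MP beyond counting error (-0.75, -4.22 to 2.05). H2AC8 (HIST1H2AE) had an FPKM of 1.51, 0.76, 2.18 and 0.61, from 11, 6, 17 and 4 reads, and did not pass the fold in any comparison with the combined treatment. Against 6-MP it came just short, at a log2 fold change of -0.98 and a log2 read ratio of -1.84 (-3.87 to -0.22), and a pseudocount of 0.1 (-1.68), scaling to TPM (-1.49) and both median-ratio scalings (-1.08 and -1.05) put it past the fold.

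H2AC6 (HIST1H2AC, chr6:26124145-26139116) was not among the lower genes. Its FPKM was 1.97, 2.40, 2.15 and 2.65, from 47, 62, 55 and 57 reads, and was highest in the combined treatment. The log2 read ratio to vehicle was 0.43, with an interval that includes 0 (-0.15 to 1.02). Below the FPKM limit, H2AC11 had 38, 36, 36 and 16 reads, and the remaining 7 H2A genes had between 0 and 7 reads in each library. Over the 12 H2A genes the sums were 148, 151, 156 and 89 reads, a log2 ratio of -0.58 for the combined treatment against vehicle (-0.98 to -0.19).

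H2B genes held the most cluster reads. H2BC12 (HIST1H2BK, chr6:27146361-27146855) had the highest FPKM of the cluster genes in every library, at 8.89, 7.57, 9.09 and 3.60 from 63, 58, 69 and 23 reads. The combined treatment lay below the other 3 libraries, with a log2 fold change of -1.10 to vehicle, -1.13 to 6-MP and -0.90 to histidine. H2BC9 (HIST1H2BH, chr6:26251651-26253710) had the most reads of all cluster genes outside the combined treatment, and its FPKM was 3.83, 2.51, 2.21 and 0.79 from 113, 80, 70 and 21 reads. Each single agent also stood below vehicle, with log2 read ratios of -0.61 for histidine (-1.04 to -0.19) and -0.79 for 6-MP (-1.24 to -0.35), and the combined treatment was lower again at -2.28 (-3.02 to -1.60).

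H2BC4 (HIST1H2BC, chr6:26114873-26123926) had an FPKM of 2.35, 2.01, 0.86 and 0.09, from 28, 26, 11 and 1 reads. It was lower with 6-MP alone than with vehicle, at a log2 read ratio of -1.45 (-2.60 to -0.40), and lower still in the combined treatment, at -4.66 (-10.01 to -2.06). H2BC5 (HIST1H2BD), which overlaps 2 other listed genes and is uncertain for that reason, had an FPKM of 2.73, 2.002, 2.47 and 1.78, with a log2 fold change of -0.42 to vehicle. H2BC21 (HIST2H2BE, chr1:149884459-149886652) had an FPKM of 1.40, 1.44, 1.49 and 1.84, from 44, 49, 50 and 52 reads. It stood highest in the combined treatment, although its log2 read ratio to vehicle of 0.39 has an interval that includes 0 (-0.22 to 1.00). The 16 H2B genes together had 373, 342, 335 and 154 reads, a log2 ratio of -1.13 (-1.41 to -0.85) for the combined treatment against vehicle. The single agents stood slightly below vehicle as well, at -0.24 for histidine (-0.45 to -0.02) and -0.25 for 6-MP (-0.47 to -0.04). Without H2BC9, a choice made after the values were seen, these were -0.10 (-0.36 to 0.15) and -0.07 (-0.32 to 0.18), and the combined treatment was at -0.82 (-1.13 to -0.51).

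H3 and H4, which form the tetramer at the centre of the nucleosome, were covered by few reads. None of the 12 cluster H3 genes reached the FPKM limit, and their sums were 55, 80, 64 and 41 reads, with a log2 ratio to vehicle of -0.27 whose interval includes 0 (-0.89 to 0.34). H4C9 (HIST1H4I) was the only H4 gene above the limit, with an FPKM of 1.19, 1.70, 1.51 and 1.92 from 22, 34, 30 and 32 reads, and its log2 fold change of 0.42 was the highest of the 11 cluster genes. Its length and reads rest on a multiplied model length, as do those of H2AC11, H3C3, H3C8 and H4C12, which scales the reads of all libraries alike. The 12 H4 genes had 70, 104, 75 and 82 reads, a log2 ratio of 0.38 (-0.10 to 0.86). H4C8 and H3C6, named after their values were seen, were the 2 cluster genes whose read interval lay above 0 in the combined treatment against vehicle. H4C8 had 15, 25, 23 and 38 reads, a log2 ratio of 1.49 (0.60 to 2.46), and H3C6 had 8, 13, 18 and 20, a ratio of 1.47 (0.23 to 2.86). H4C12 and H3C3, both at 6 reads with vehicle, were at 0 in the combined treatment.

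**Figure D2:**
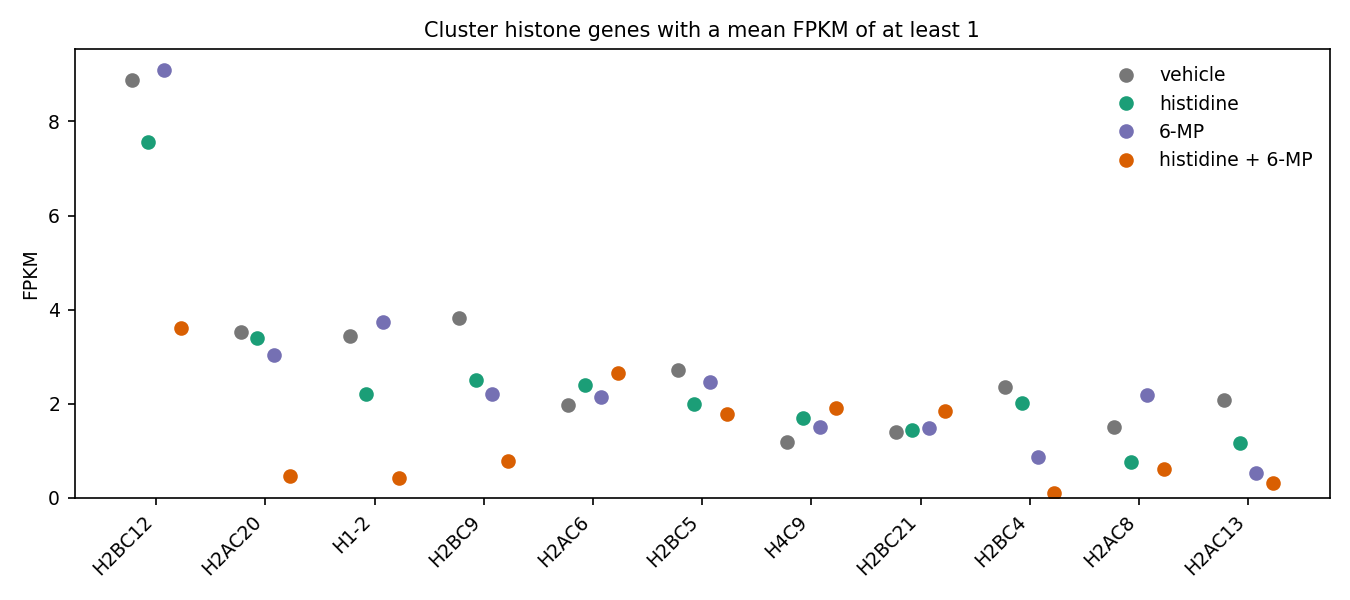
FPKM (vertical axis, from 0) of the 11 cluster genes that averaged 1 FPKM or more, ordered by that mean, with 1 point per library. The combined treatment is lowest for 8 genes (28.8% of all genes tested) and highest for 3, namely H2AC6, H4C9 and H2BC21 (53.8%).

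**Figure D3:**
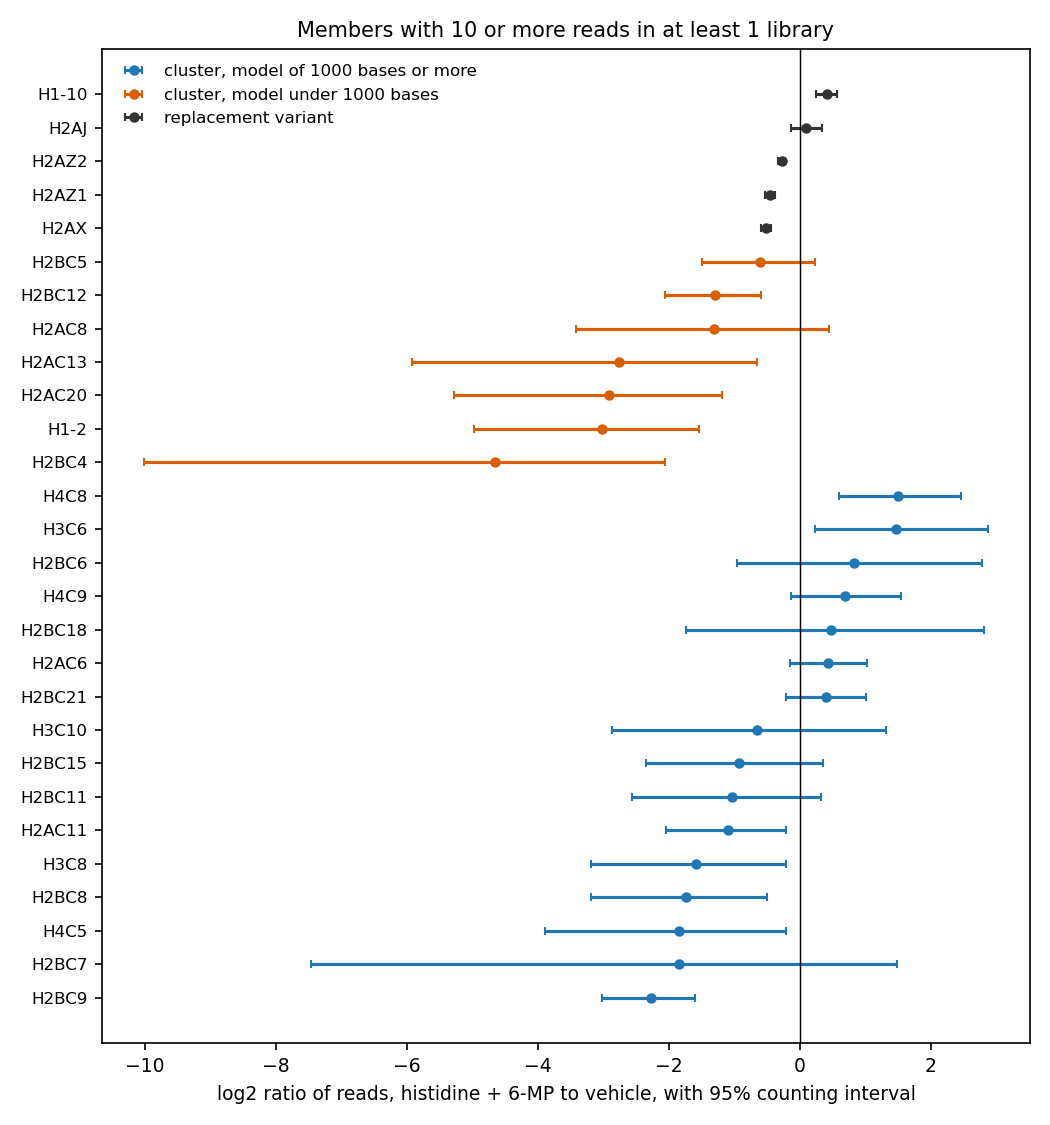
Log2 ratio of reads in histidine + 6-MP to vehicle (horizontal axis) with its 95% counting interval, for members with 10 or more reads in at least 1 library, coloured by class and length of the gene model. H4C12, at 0 in the combined treatment, has no ratio and is not drawn, and 5 replacement variants are shown. Short cluster models lie at or below H2BC5 (-0.62), long ones on either side of 0, from H2BC9 (-2.28) to H4C8 (1.49), and replacement variants between -0.52 and 0.41.

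The cluster genes differed among themselves by the length of the gene model. The split at 1000 bases was chosen after the values were seen, and the difference between the sets was not tested. The 36 genes with shorter models had 289, 268, 280 and 85 reads, a log2 ratio of the combined treatment to vehicle of -1.62 (-1.98 to -1.26). The 20 genes with longer models had 403, 439, 406 and 289 reads, a log2 ratio of -0.33 (-0.55 to -0.11). Of the longer models, 19 of 20 hold the stem-loop letters inside the annotated transcript, whereas this was so for 7 of 36 shorter ones. By the read interval, 5 of the 20 were lower than with vehicle (H2BC9, H2BC8, H2AC11, H4C5 and H3C8) and 2 higher (H4C8 and H3C6). Over all genes these shares were 9.55% and 25.9%. The decrease in the sum of the longer models rested on H2BC9. Without it, a choice made after the values were seen, the other 19 genes had 290, 359, 336 and 268 reads, an RPM of 20.3, 23.2, 21.9 and 20.8 and a log2 ratio to vehicle of 0.04 (-0.21 to 0.28). A list of 6 cluster genes known to give polyadenylated transcripts (H1-2, H2AC6, H2BC5, H2BC12, H2BC21 and H4C8) had 239, 246, 272 and 194 reads, a log2 ratio of -0.15 with an interval that includes 0 (-0.43 to 0.13). Of its 5 genes above the FPKM limit, 2 were lower (H1-2 and H2BC12) and 0 higher.

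By position, the 28 genes of the chromosome 6 cluster from 26020451 to 26285638 had 397, 368, 372 and 200 reads, a log2 ratio of the combined treatment to vehicle of -0.84 (-1.09 to -0.59). The 19 genes from 27125897 to 27893891 on chromosome 6 had 219, 247, 228 and 101 reads, a ratio of -0.97 (-1.32 to -0.62). The 9 genes on chromosome 1 from 149782689 to 149887411 had 76, 92, 86 and 73 reads, a ratio of 0.09 (-0.39 to 0.57). H2BC21 and H2AC20 gave most of the chromosome 1 reads, and of these only H2AC20 was lower beyond counting error. Near-identical copies on chromosome 1 (H2AC18 with H2AC19, H4C14 with H4C15) had at most 3 reads in any library and are uncertain, because the treatment of shared reads is not stated.

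Some neighbouring genes that share a promoter region differed in the combined treatment, whereas in other pairs both genes had fewer reads. Within 1000 bases 9 divergent pairs were found, 8 of them an H2A gene beside an H2B gene, with start sites 218 to 318 bases apart. H2BC4, at 28, 26, 11 and 1 reads, lies 218 bases from H2AC6, at 47, 62, 55 and 57. H2AC20, at 25, 26, 23 and 3 reads, lies 265 bases from H2BC21, at 44, 49, 50 and 52. In each of these pairs the gene with the short model was far lower in the combined treatment and the gene with the long model was not. In 4 further pairs with 10 or more reads of a gene in a library, both genes had fewer reads in the combined treatment than with vehicle. H2BC8 had 26, 25, 28 and 7 reads beside H2AC8, and H2BC11 had 16, 12, 7 and 7 beside H2AC11. H2BC8, H2BC11 and H2AC11 have long models, so here genes with long models had fewer reads as well. H2BC13 had 5, 4, 6 and 0 beside H2AC13, and H2AC12 had 3, 2, 6 and 0 beside H2BC12. The strand used in counting is not stated, although the start sites of these pairs do not overlap.

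**Figure D4:**
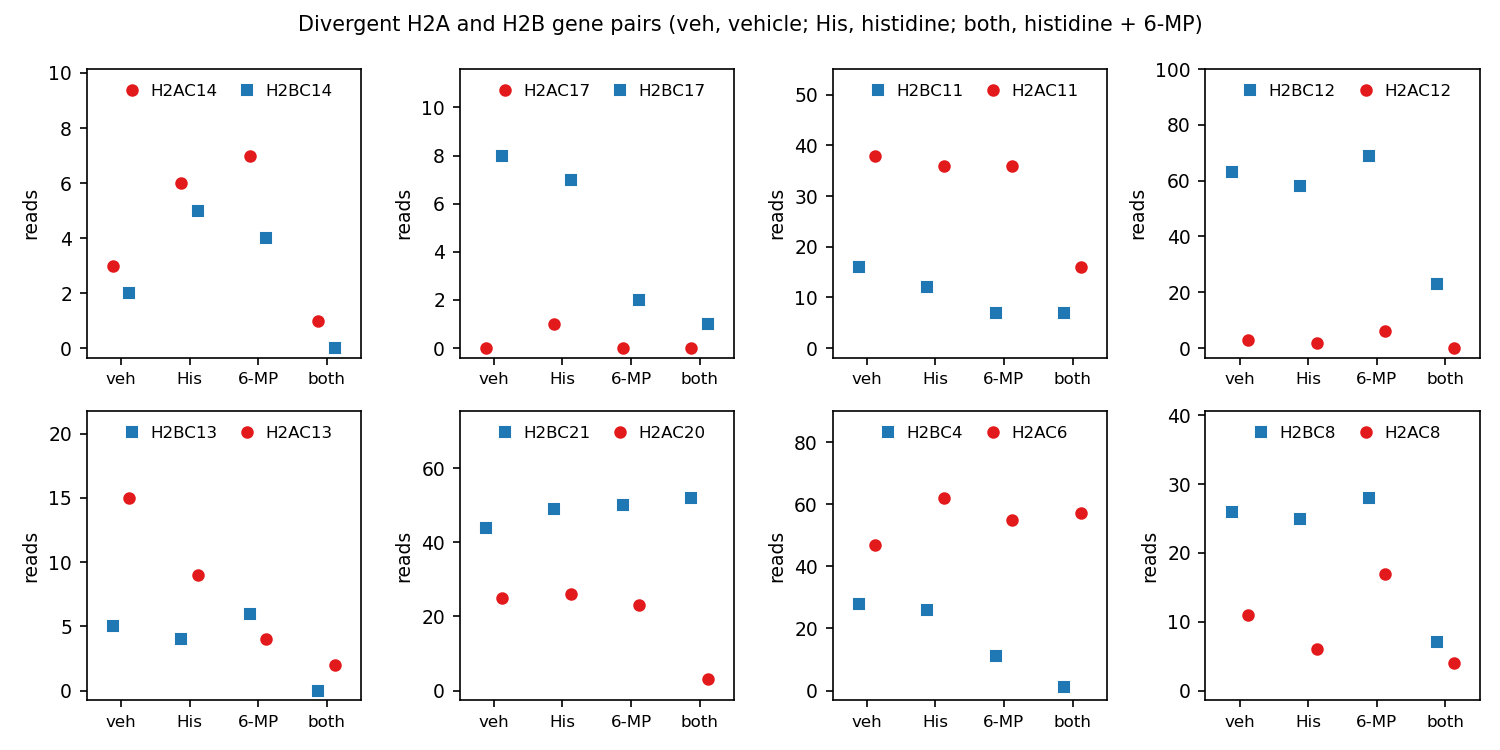
Reads (vertical axes) of the 8 divergent pairs of an H2A gene (circles) and an H2B gene (squares) in the 4 libraries. H2BC4 and H2AC20 stand at 1 and 3 reads in the combined treatment, beside 57 for H2AC6 and 52 for H2BC21. In other pairs both genes had fewer reads than with vehicle, such as H2BC8 (26 to 7) and H2AC8 (11 to 4).

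Replacement variants were mostly more abundant per length than the cluster genes. The FPKM with vehicle of the 6 above the limit ranged from 6.16 (H2AJ, below H2BC12) to 148 (H2AX), beside 1.19 to 8.89 for the 11 cluster genes. None of the 6 passed the fold in any of the 5 comparisons, which is near the background shares given above and is no result about the variants. Summed over 7 genes they had 15105, 16628, 16025 and 11062 reads, or an RPM of 1055, 1074, 1044.5 and 857.6. The combined treatment was the lowest, with a log2 ratio to vehicle of -0.30 (-0.33 to -0.26), a smaller decrease than the -0.74 of the cluster genes, and the intervals of these ratios do not overlap.

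H2AX, whose phosphorylation marks DNA breaks and whose transcript also holds the stem-loop, had an FPKM of 148, 150, 144 and 103. H2AZ1 and H2AZ2, which encode the H2A.Z variants found at promoters, had 110, 109, 106 and 79.8 and 64.2, 63.9, 64.0 and 52.9. In all 3 genes the first 3 libraries lay together and the combined treatment below them. Their log2 fold changes to vehicle were -0.52, -0.46 and -0.28. H2AJ, an H2A variant, had 6.16, 5.83, 5.63 and 6.58, with a log2 read ratio to vehicle of 0.10 (-0.14 to 0.34).

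H1-10, a replacement linker histone, did not follow H2AX. Its FPKM was 27.1, 37.1, 36.1 and 35.9. Vehicle was its lowest library and the 3 treated ones lay together, with log2 read ratios to vehicle of 0.45 for histidine (0.30 to 0.60), 0.41 for 6-MP (0.26 to 0.57) and 0.41 for both (0.25 to 0.57). The place of the combined library depended on the scaling. Its log2 fold change to vehicle was 0.39, and 0.16 when scaled by the median ratio over genes above 0 in all libraries. H1-7 had 1 read with histidine and 1 in the combined treatment. H1-10 and H2AZ1 each overlap 1 other listed gene, so reads of the neighbour may be counted with them.

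Of the histone genes missed by the symbols, 5 were looked at. H3-3A and H3-3B encode the replacement histone H3.3. H3-3A had an FPKM of 106, 105, 101 and 85.9, and H3-3B had 86.3, 83.0, 89.6 and 87.9. H3-3A was lowest in the combined treatment, and H3-3B had a log2 read ratio of 0.03 to vehicle, with an interval that includes 0 (-0.02 to 0.07). CENPA, the H3 variant of centromeres, had 25.7, 32.7, 29.5 and 13.7, with a log2 fold change of -0.86 to vehicle, -1.05 to 6-MP and -1.20 to histidine. MACROH2A1, which encodes macroH2A, had 32.0, 33.4, 30.2 and 23.8, with a log2 fold change of -0.41 to vehicle. H2BE1, an H2B gene outside the clusters, was higher in the combined treatment by the fold, at an FPKM of 0.37, 0.90, 0.57 and 3.25 from 3, 8, 5 and 24 reads, with a log2 fold change to vehicle of 1.64 and a log2 read ratio of 3.15 (1.43 to 5.53).

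Few genes of the related lists passed the fold, as over all genes, of which 5.01% were higher and 1.51% lower against vehicle with a median of 0.13. Shares of 0 or 1 gene in lists of these sizes are near that background and are no result about the lists. SLBP, the stem-loop binding protein, had an FPKM of 81.4, 93.1, 92.3 and 81.8, and NPAT, a coactivator of histone gene transcription, had 7.61, 6.44, 6.73 and 9.05. Of 22 genes for histone transcription and 3′ processing, 0 were higher and 0 lower by the fold in the combined treatment against vehicle, with a median of 0.17. CCNE2, a cyclin of the G1 to S transition, moved furthest, from 6.20 to 12.6. Of 34 DNA replication genes, 1 was higher, the licensing factor CDT1 (47.4 to 115), and 0 were lower, with a median of 0.21. Of 27 histone chaperone genes above the limit, 1 was lower, NCL, which encodes nucleolin (197 to 90.6), and 0 were higher, with a median of -0.09.

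Other values of the libraries stand beside these results. Of 30 RNAs made without a poly(A) tail, 10 were listed, at 7.68, 8.46, 7.69 and 8.61 summed RPM. RN7SL1 alone gave 102, 119, 111 and 104 of these reads and the other 9 together 8, 12, 7 and 7, so the sum describes 1 gene. The labelled B lineage was present in every library, with CD79A at an FPKM of 246, 256, 253 and 333 and 7 of 8 B-lineage genes listed. In the combined treatment against vehicle the read interval lay above 0 for 4 of these 7 and below 0 for 3, namely PAX5 (72.3 to 55.9), EBF1 (50.4 to 42.2) and DNTT (557 to 497). Markers of other cells, of which 8 of 13 were listed, had a summed RPM of 110, 121, 105 and 173, led by MPO, a myeloid enzyme, at an FPKM of 27.7, 30.5, 26.4 and 41.0. The erythroid gene HBB was at 0 in 3 libraries and at 0.05 with histidine. The part of these markers in the result was not tested. A list of 4 testis cluster genes gave no match to the symbols listed.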

How the data were processed

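RNA was measured in 4 libraries of Reh-6-MPR cells, 1 per treatment, made with a stranded poly(A) kit. The authors deposited FPKM values per gene. The submitters' processing notes name Trimmomatic, HISAT2, Cufflinks and HTSeq, with GRCh38 (hg38), and no versions. How reads shared by genes were counted, and on which strand, is not given in the sources used here. DESeq2, the authors' test, needs replicates and was not run.

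Reads were recovered from the steps of the deposited FPKM values. They were whole, within 0.05 of a read, in all 4 libraries for 29774 of 29833 genes (99.8%), and the recovered totals were 99.93% to 99.98% of the denominators. The vehicle library held 14316493 reads, histidine 15486376, 6-MP 15342296 and histidine + 6-MP 12899122. For 7 members the recovered length was multiplied to come near the annotated length, which scales their reads. Fold changes used a pseudocount of 1 over genes averaging 1 FPKM or more, and a log2 difference of 1 in either direction counted as past the fold. Intervals are exact Clopper-Pearson 95% intervals and cover counting error only.

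The members and lists were chosen with earlier results of these data known. The text names replacement variants that reach this average, the 10 cluster genes of highest mean FPKM, the 5 highest and 5 lowest members in each comparison of the combined treatment, SLBP, NPAT and up to 4 genes per list. Any other member was named after its values were seen. A replacement variant, which enters the sums and medians, and a marker gene are not reported here by themselves. Alternatives were a pseudocount of 0.1, other limits on low values and on the fold, other scalings and sums without certain genes. The scripts were tested on simulated data, with numpy 2.4.6, scipy 1.17.1, pandas 2.3.3 and matplotlib 3.10.9 under Python 3.11.15. Transcripts and lengths came from GENCODE 29.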

Additional observations from a re-analysis of the deposited data

How the results depend on the processing

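No paired analysis was possible because the design holds 1 library per treatment, and for the same reason no replicate could be left out. The sum of cluster reads was lower in the combined treatment in every alternative run. Scaling by the median ratio over genes above 0 in all libraries moved its log2 ratio to -0.98 against vehicle, -0.86 against 6-MP and -0.86 against histidine. The same scaling moved the median over all genes tested against vehicle from 0.13 to -0.07 and the share of higher genes among those past the fold from 76.8% to 53.6%. It set the median of the replacement variants to -0.32, -0.37 and -0.35 in these comparisons. Restricted to genes tested, a choice made after seeing the data, it gave -0.24, -0.28 and -0.28. Each median-ratio scaling put 5 cluster genes past the fold against histidine (all genes 5.04% and 5.11%). Without H2BC9, the cluster gene with the most reads, the sum was at -0.56, -0.55 and -0.57. Leaving it out of the long models turned their ratio to vehicle to 0.037.

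Without a filter on low values the cluster median against vehicle was -0.23, and the replacement median turned to 0.083 against vehicle and stood at -0.0048 against 6-MP and -0.044 against histidine, because H1-7, with at most 1 read per library, enters. Counts of cluster genes past the fold depended on the settings. A pseudocount of 0.1 gave 6 genes against 6-MP (all genes 11%), 6 against histidine (10%) and 2 for 6-MP against vehicle (3.05%). A mean FPKM of at least 5 left 1 cluster gene, H2BC12, so the counts were 1 against vehicle, 1 against 6-MP, 0 against histidine and 0 for 6-MP against vehicle, beside 4.11%, 3.65%, 3.58% and 0.231% of all genes. A log2 fold change of 1.5 gave 3, 1, 1 and 0, beside 2.09%, 1.93%, 1.76% and 0.4%. Scaling to TPM, which raises values and brings 37 cluster genes above the limit, gave 21 against vehicle (19 lower), 20 against 6-MP, 20 against histidine and, for the single agents against vehicle, 3 (histidine) and 10 (6-MP), beside 17.3%, 16.2%, 15.7%, 6.46% and 6.47% of all genes. Sums without members that overlap another listed gene, added after the values were seen, gave -0.80 against vehicle.

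Few reads limit most cluster genes, since 32 of 56 had fewer than 10 reads in every library.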
